A study of Mus musculus with 2 samples.

Results

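The genes described here are Hcn2, Hcn3 and Hcn4, which encode hyperpolarization-activated cyclic nucleotide-gated (HCN) channels, and Nalcn, which encodes the sodium leak channel. They are 4 of the 25556 genes in a table of single-nuclei RNA sequencing (snRNA seq) of the mouse brainstem, and were chosen by name, across the cell clusters, the finer subclusters and the genotypes. The study asked how the brainstem of mice with Dravet Syndrome differs at baseline. It holds 1 wildtype (WT) library and 1 heterozygous (HET) library, each from the brainstem of an untreated female mouse on a C57Bl6 background at postnatal day 41. The HET mouse carried 1 knock-in copy of the missense, loss-of-function Scn1a allele A1783V and 1 WT copy. It came from a cross of a male with a floxed Scn1a allele and a Sox2-Cre female, so the mutation is present throughout the body and not in the brainstem alone. The WT mouse was a littermate with intact Scn1a, and HET mice of this age had already outlived the weeks in which most deaths occur.

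HCN channels open when a neuron is hyperpolarized and pass an inward cation current, and cyclic AMP (cAMP) bound to the channel makes most of them open more readily. The current helps set the resting potential and the rhythm of firing, and in the heart HCN4 carries much of the pacemaker current. NALCN passes a small sodium leak at rest that keeps neurons closer to threshold. It works with the large proteins UNC79 and UNC80 and with FAM155A, and in brainstem neurons it is known for a part in breathing and in the response to neuropeptides such as substance P.

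The 4 genes lie on different chromosomes. In the GENCODE vM21 annotation of GRCm38, Hcn2 (ENSMUSG00000020331) spans chr10:79716634-79736108 on the plus strand. Hcn3 (ENSMUSG00000028051) spans chr3:89146074-89160196 on the minus strand and overlaps Pklr on the opposite strand. Hcn4 (ENSMUSG00000032338) spans chr9:58823412-58863175 on the plus strand. Nalcn (ENSMUSG00000000197) spans chr14:123276634-123627144 on the minus strand, and Gm49297 lies inside it on the same strand, so their reads cannot be told apart where they share sequence. The spans are 19.5 kb for Hcn2, 14.1 kb for Hcn3, 39.8 kb for Hcn4 and 351 kb for Nalcn, and this difference in span returns beside the genotype values below.

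RefSeq promoter windows on GRCm38.p6, each of 300 bases around the gene start that RefSeq gives, were found for Hcn2, Hcn4 and Nalcn. The windows of Hcn2 and Nalcn are shown because these genes had the most UMIs of the 4 and contrasting distributions over the cell clusters. They are chr10:79716384-79716683 on the plus strand and chr14:123627095-123627394 on the minus strand, printed 5′ to 3′ with every CG pair in capitals.
Hcn2: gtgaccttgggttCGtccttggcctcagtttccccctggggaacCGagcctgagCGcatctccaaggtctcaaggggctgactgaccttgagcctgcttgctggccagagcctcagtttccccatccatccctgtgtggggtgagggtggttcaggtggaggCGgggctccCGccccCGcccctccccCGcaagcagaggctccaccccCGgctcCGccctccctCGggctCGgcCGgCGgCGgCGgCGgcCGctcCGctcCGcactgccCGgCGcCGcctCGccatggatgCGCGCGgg
Nalcn: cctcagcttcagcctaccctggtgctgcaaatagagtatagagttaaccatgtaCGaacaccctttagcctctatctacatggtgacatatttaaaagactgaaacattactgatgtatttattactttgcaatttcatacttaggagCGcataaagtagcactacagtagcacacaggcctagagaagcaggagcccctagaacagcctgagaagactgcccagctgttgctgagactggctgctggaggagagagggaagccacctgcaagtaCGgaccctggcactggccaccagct
The Hcn2 window holds 26 CG pairs with a GC content of 72.3%, and 83.1% of 32851 promoter windows of this length hold fewer. The Nalcn window holds 3 with a GC content of 48.3%, and 23.3% hold fewer. Hcn4 has 31 in its window, more than 89.4% of the windows, whose median is 7. The Hcn4 window, chr9:58822699-58822998, lies upstream of the GENCODE start given above. These counts describe the letters of the windows only.

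The WT library had 9259 nuclei with 70301390 unique molecular identifiers (UMIs, each 1 captured RNA molecule), and the HET library had 9022 nuclei with 66176778. The median nucleus held 5456 and 5646 UMIs, and 23 cell barcodes occurred in both libraries. The median share of ribosomal protein UMIs was 0.696% in WT and 0.407% in HET nuclei, that of mitochondrial UMIs was 0.343% and 0.458%, and neuronal clusters held 66.1% and 59.8% of the nuclei. Scn1a was counted at 26726 UMIs in WT and 27823 in HET, or 380 and 420 CPM (UMIs per 1000000 UMIs of the same nuclei), a log2 ratio of HET over WT of 0.15 (0.12 to 0.17). The allele changes an amino acid, so this count does not check the genotype. Of the 16 deposited clusters, 9 are neuronal, and the nuclei are also divided into 34 subclusters. Clusters were compared where both libraries held 30 or more nuclei, which left 12. With 1 library per genotype there is no replicate and no test between genotypes. The 95% intervals given in parentheses are exact and cover counting error only, not the spread between animals or preparations.

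Cluster names were checked against marker genes. The oligo cluster held Mog at 921 CPM, and its reference label matched in 4131 of 4149 nuclei. Cluster neuron.7 held the serotonergic genes Tph2 at 1298 CPM and Slc6a4 at 709 CPM. Other names matched less well. In micro 108 of 405 nuclei had the microglial reference label, and its subcluster 18, with 185 nuclei, held the neuronal gene Snap25 at 658 CPM, close to 636 CPM over the neuronal clusters. In fibro 40 of 266 nuclei had the fibroblast label, although the fibroblast genes Dcn at 362 CPM and Col1a2 at 284 CPM were present. In epend.1 88 of 174 nuclei had the matching label. The main values of these 3 clusters are therefore also given by reference label.

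**Figure D1:**
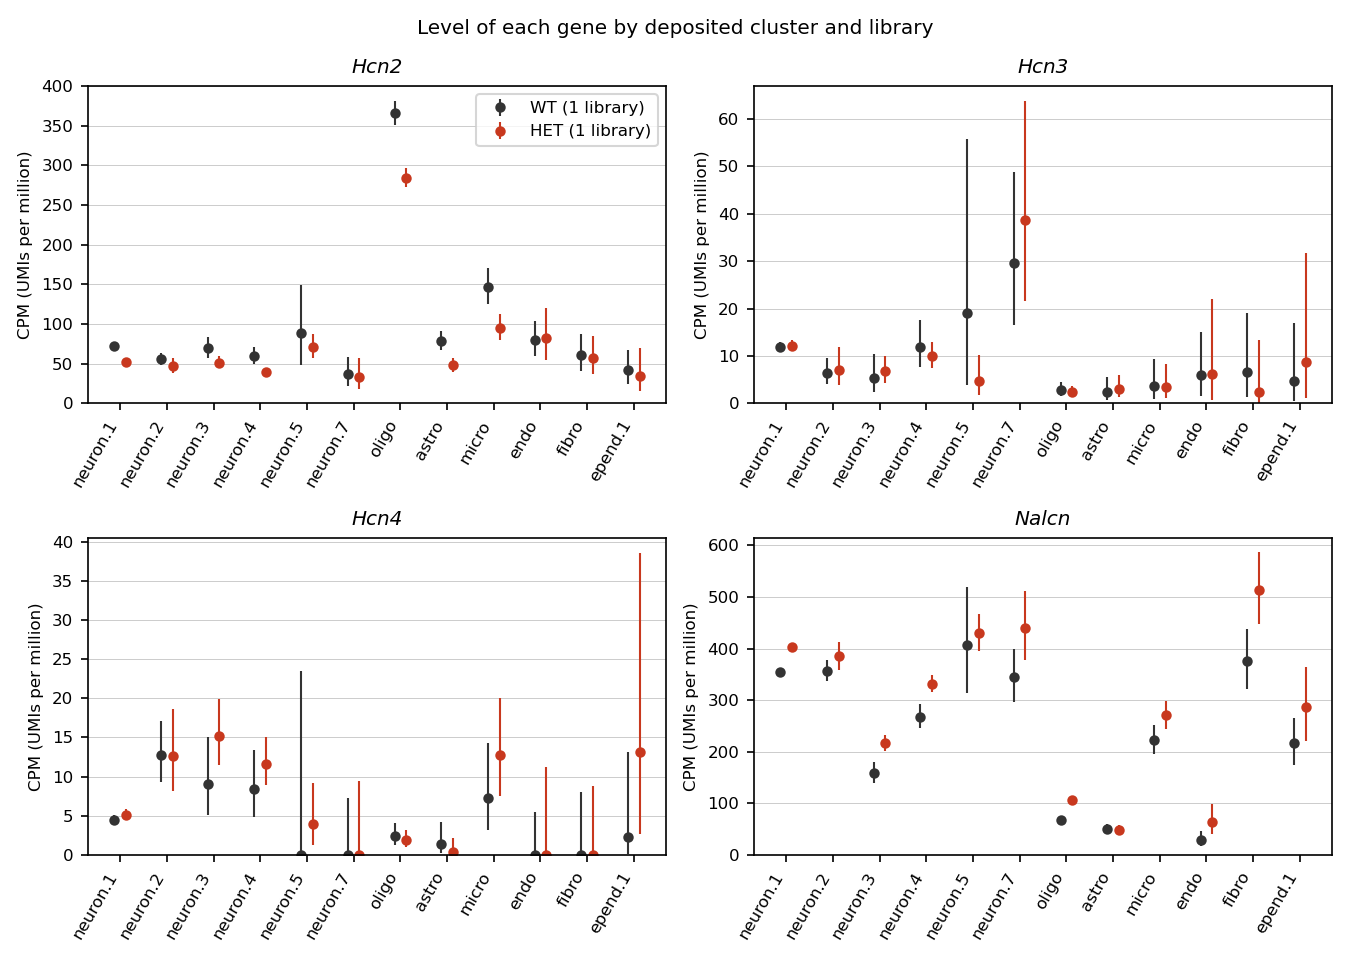
Level of Hcn2, Hcn3, Hcn4 and Nalcn (CPM) in the WT and HET libraries for each of the 12 compared clusters, with points for the libraries and bars for the exact 95% Poisson intervals of counting. Hcn2 stands at 366 and 285 CPM in oligo, Hcn3 at 29.5 and 38.6 CPM in neuron.7, and Nalcn is at 159 CPM or more in the neuronal clusters and in fibro, micro and epend.1.

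Hcn2 encodes the HCN channel that is most widespread in the brain, and here its highest level was in oligodendrocytes and not in neurons. In oligo it had 2138 UMIs in WT and 2246 in HET, or 366 CPM (351 to 382) and 285 CPM (273 to 297). Both libraries were above every other compared cluster. The next was micro, with 147 and 95.3 CPM. Over the neuronal clusters together Hcn2 was at 68.9 CPM (66.8 to 71.0) in WT and 50.9 CPM (49.0 to 52.8) in HET. Summed over both libraries, oligo nuclei with the oligodendrocyte label held 530% of the neuronal level. The neuron-restricted genes in the same nuclei were much lower relative to neurons, Rbfox3 at 10.8% and Snap25 at 21% of their neuronal levels. How much of this is neuronal RNA carried into the nuclei was not tested.

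The share of nuclei with at least 1 Hcn2 UMI was also higher in oligo than in neuron.1, the largest neuronal cluster. It was 61.6% in WT and 53.8% in HET oligo nuclei, at a median of 2738 and 2854 UMIs per nucleus. It was 45.8% and 38.1% in neuron.1, at 7753 and 8509 UMIs. When each nucleus was thinned to 1000 UMIs, the expected shares were 30.5% and 24.8% in oligo against 7.4% and 5.4% in neuron.1. The astrocyte-labelled nuclei of astro, which should hold little of a neuronal or oligodendrocyte RNA, were at 57 CPM over both libraries, 94.4% of the neuronal level of Hcn2. By the same measure Snap25 reached 19.4% and Rbfox3 9.46% in these nuclei. Hcn2 was uneven within astro. It was at 34.9 CPM in subcluster 4, with 1073 nuclei. In subcluster 26, with 114 nuclei and Mog at 513 CPM, it was at 208 CPM.

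Outside the oligo cluster Hcn2 was mostly higher in nuclei with the oligodendrocyte label. Nuclei labelled oligodendrocytes held Hcn2 at 308 CPM inside micro, 296 CPM inside endo, 225 CPM inside fibro and 348 CPM inside astro, although each of these sets has 79 nuclei or fewer. The 5 such nuclei of epend.1 had 1 UMI, or 60.4 CPM. Microglia-labelled nuclei of micro held 120 CPM and endothelial-labelled nuclei of endo held 55.6 CPM. Outside oligo, 3 subclusters were above 130 CPM, and each also carried Mog, a gene of the myelin sheath. Subcluster 28 in micro had 316 CPM of Hcn2 with 773 CPM of Mog, subcluster 26 in astro had 208 with 513, and subcluster 21 in neuron.5 had 132 with 363. They held 0.409, 0.404 and 0.365 Hcn2 UMIs for each Mog UMI, against 0.347 in oligo itself. Subcluster 4, the largest of astro, had 34.9 CPM of Hcn2 and 62.8 CPM of Mog, or 0.556 Hcn2 UMIs for each Mog UMI, and subcluster 20 in micro had 68.1 CPM and 77.8 CPM, or 0.875. Hcn2 was thus high relative to Mog in these subclusters, where both were low.

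**Figure D2:**
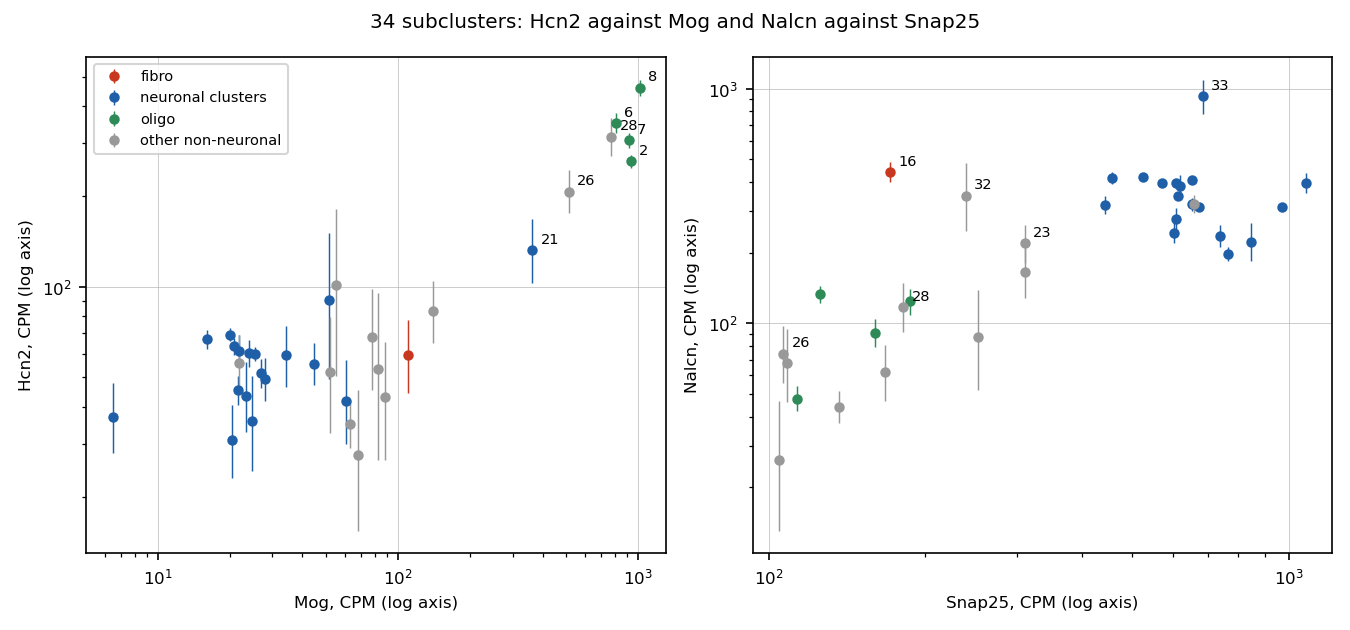
Level of Hcn2 against Mog and level of Nalcn against the neuronal gene Snap25 (CPM, log axes) for the 34 subclusters, both libraries summed. The oligodendrocyte subclusters, from 261 to 460 CPM of Hcn2, lie at the upper right with Mog at 806 CPM or more, while Nalcn is at 928 CPM in subcluster 33 and at 442 CPM in subcluster 16, the fibro cluster, which has 171 CPM of Snap25.

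Within oligo, the 4 subclusters differed in Hcn2. Both libraries together gave 261 CPM in subcluster 2, 307 in subcluster 7, 350 in subcluster 6 and 460 in subcluster 8. The libraries share these subclusters unevenly: subcluster 8 had 825 WT and 35 HET nuclei, and subcluster 6 had 39 and 827. In subcluster 2, with 768 WT and 789 HET nuclei, Hcn2 was at 283 and 241 CPM. In subcluster 7 it was at 371 and 288 CPM, in subcluster 6 at 473 and 344 CPM, and in subcluster 8 at 466 and 324 CPM. The HET value was thus the lower in each of the 4, with overlapping intervals in subclusters 6 and 8. In oligo, genes that span under 25 kb, as Hcn2 does, had a median log2 ratio of -0.33. The share of all genes lower in each of the 4 was not taken. Among neuronal subclusters other than 21, Hcn2 lay between 31.0 CPM in subcluster 22 and 90.2 CPM in subcluster 33. In nuclei with at least 3 UMIs of Slc6a5, the glycine transporter, it was at 69.1 CPM in WT and 46.2 CPM in HET.

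The genes whose profile over the 34 subclusters was most like that of Hcn2, among 16347 genes with at least 200 UMIs, were Rcbtb1, Ppp1r16b and Nfe2l3, each with a Pearson r of 0.93, and Slc44a1 and Slain1, each with 0.92. Slc44a1 encodes a choline transporter. These correlations of log2(CPM + 1) describe subclusters that come from the same libraries and differ in depth. Pex5l, which encodes the HCN partner TRIP8b, was also high in oligo. It was at 3238 CPM in WT and 3676 CPM in HET there, against 394 and 434 CPM in neuron.1.

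Between genotypes Hcn2 was lower in the HET library. Over all nuclei it had 6670 UMIs in WT and 5275 in HET, or 94.9 and 79.7 CPM, a log2 ratio of -0.25 (-0.30 to -0.20). For genes with at least 200 UMIs the median log2 ratio was -0.10, and 34.7% of them were below Hcn2. With each cluster given the same weight in both libraries the ratio was -0.43, and as a mean over nuclei of CPM it was -0.16. The log2 ratio was -0.48 (-0.56 to -0.40) in neuron.1, where 16.1% of genes were lower, and -0.36 (-0.45 to -0.28) in oligo, where 24.3% were lower. HET was lower in 11 of the 12 clusters, with the interval below 0 in 6 of them, and higher in endo, at 79.9 and 82.5 CPM, where the interval spanned 0. Of 4544 genes with 20 UMIs in each of the 12 clusters, 19.4% were also lower in HET in at least 11. Of the genes among them that span less than 25 kb, as Hcn2 does, 50.5% were lower in at least 11, so this direction was usual for a gene of its span.

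The 7 subclusters of neuron.1 gave the same direction for Hcn2. The WT levels ran from 61.3 to 79.0 CPM and the HET levels from 38.1 to 58.0 CPM, in subclusters that come from the same 2 libraries. The log2 ratios lay between -0.93 in subcluster 24 and -0.25 in subcluster 3. Of 8357 genes with 20 UMIs in each of these subclusters, 25.9% were lower in HET in all 7, and 45.9% of those under 25 kb. Inhibitory neurons, here neuronal nuclei with at least 5 UMIs of Slc32a1, Gad1, Gad2 and Slc6a5 and 5 times as many as of the vesicular glutamate transporters, held 72.5 CPM in WT and 51.6 CPM in HET, which gives a log2 ratio of -0.49 (-0.64 to -0.34). Glutamatergic neurons, defined the other way round, held 58.1 and 41.1 CPM, with -0.50 (-0.81 to -0.19). In nuclei with at least 3 UMIs of Chat, the enzyme that makes acetylcholine, Hcn2 was at 32.8 CPM (WT) and 45.2 CPM (HET), and the interval of the log2 ratio, -0.30 to 1.20, spanned 0.

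Nalcn was a gene of neurons in these data, with some exceptions. In neuron.1 it had 17140 UMIs in WT and 16351 in HET, or 355 CPM (350 to 360) and 402 CPM (396 to 408). At least 1 UMI was seen in 86.1% and 93.1% of these nuclei, and in 29% and 33.3% after thinning to 1000 UMIs. The other compared neuronal clusters lay between 159 CPM in neuron.3 of WT and 441 CPM in neuron.7 of HET. Neuron.3 was the lowest in both libraries, with 159 and 217 CPM. The next neuronal cluster, neuron.4, had 268 and 332 CPM, and the ranges of the 2 libraries did not overlap. Neuron.2 had 357 and 385 CPM, neuron.5 had 407 and 430 CPM, and neuron.7 had 345 and 441 CPM. In the order of their means neuron.2, neuron.1, neuron.7 and neuron.5 each overlapped with the next, so these neighbours cannot be ordered.

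Glial and vascular nuclei held much less Nalcn. It was at 68.5 CPM in WT and 107 CPM in HET in oligo, at 49.7 and 48.4 CPM in astro, and at 29.6 and 64.2 CPM in endo. Summed over both libraries and restricted to nuclei with the matching label, these were 24.7%, 12.5% and 8.12% of the neuronal level. Snap25, a presynaptic protein of neurons, reached 21%, 19.4% and 18.7% of its neuronal level in the same nuclei. The Nalcn share in astro and endo was thus below that of Snap25, and that in astro was above the 9.46% of Rbfox3. Microglia-labelled nuclei of micro held 57.7 CPM, while the neuron-labelled nuclei of the same cluster held 315 CPM. Micro as a whole was at 223 CPM in WT and 270 CPM in HET.

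The fibro cluster, which is subcluster 16, was the non-neuronal cluster with the highest Nalcn level. It had 173 UMIs over 132 WT nuclei and 215 over 134 HET nuclei, or 377 CPM (323 to 437) and 513 CPM (447 to 587). Its leading genes were Ranbp3l, Slc6a20a, Slc47a1 and Slc6a13, and the 3 genes with an Slc symbol encode membrane transporters. Over both libraries Nalcn stood at 122% of its neuronal level. The genes of its channel complex did not, with Unc79 at 19.4%, Unc80 at 16.8% and Fam155a at 20.9% of theirs. Neuronal genes were at the same low share, Rbfox3 at 20.4%, Snap25 at 26.9% and Meg3 at 21.7%. In fibro nuclei without any UMI of Rbfox3 or Snap25, Nalcn was at 407 CPM in 81 WT nuclei and 482 CPM in 86 HET nuclei. This choice of nuclei was made after the values were seen. At the depth of these nuclei, neuronal RNA can be present without a UMI of either gene.

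By reference label the level in fibro varied. It was 506 CPM in 111 nuclei labelled neurons and 468 CPM in 95 labelled astrocytes. The 40 nuclei labelled fibroblasts held 278 CPM, with 246 (WT) and 305 (HET) CPM, which is below the cluster as a whole but above the nuclei of oligo, astro and micro with their matching labels. Nuclei labelled astrocytes in fibro had 109 CPM of Snap25. The source of the Nalcn RNA in these nuclei was not tested. In epend.1, at 216 CPM in WT and 286 CPM in HET, the 71 nuclei labelled neurons held 322 CPM and the 88 with the matching label, epithelial cells, held 154 CPM. Epend.2, a cluster with 108 WT and 6 HET nuclei, held 26.2 CPM.

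**Figure D3:**
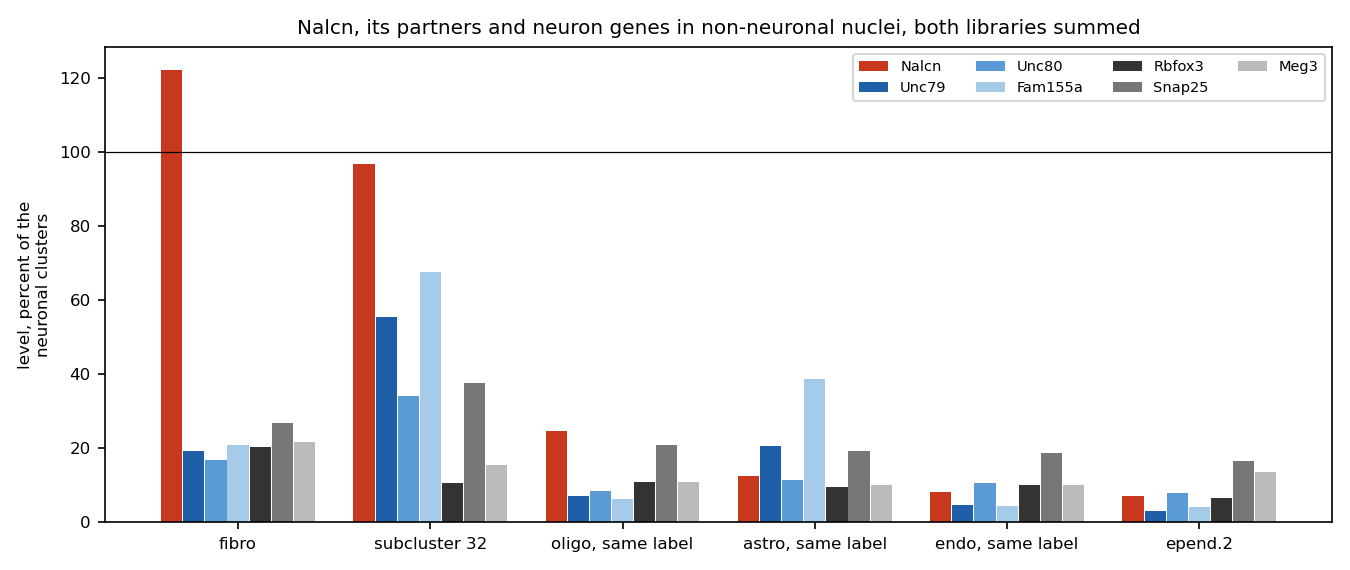
Level of Nalcn, of the channel partners Unc79, Unc80 and Fam155a, and of the neuronal genes Rbfox3, Snap25 and Meg3 in 6 sets of non-neuronal nuclei, as a percentage of the level of the same gene over the neuronal clusters, both libraries summed. In fibro the Nalcn bar reaches 122% while the other genes lie between 16.8% and 26.9%, and in subcluster 32 the Nalcn bar reaches 96.7% with Fam155a at 67.4%.

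A small group in epend.1, subcluster 32, also held Nalcn. Its leading genes were Pdgfra, Neu4, Itga9, Vcan and Cspg4, and 3 of these, Pdgfra, Cspg4 and Vcan, are markers of oligodendrocyte precursors. It had 50 nuclei, 47 of them WT. Nalcn was at 350 CPM (247 to 480), 96.7% of the neuronal level, from 38 UMIs. Fam155a stood at 67.4%, Unc79 at 55.3% and Unc80 at 34% of the neuronal levels, above Rbfox3 at 10.7% and, except for Unc80, above Snap25 at 37.6%. The channel partners were thus nearer to Nalcn here than in fibro.

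The highest Nalcn level of any subcluster was in subcluster 33, with 43 nuclei whose leading genes included Lmx1a, Tll1 and Sulf1. It was at 928 CPM (783 to 1093), more than 2 times that of any other subcluster. Its 6 WT nuclei gave 679 CPM (351 to 1186) from 12 UMIs, and its 37 HET nuclei gave 960 CPM (803 to 1139). Fam155a was at 6865 CPM there, against 2629 CPM in neuron.1. Unc79 was at 825 CPM and Unc80 at 703 CPM, against 300 CPM and 551 CPM. Each of these 3 partner genes was thus above its neuron.1 level. Among the genes named for likeness to Nalcn over the 34 subclusters were Jph3 with a Pearson r of 0.88, which encodes a junctophilin that holds calcium stores near the plasma membrane, Slc2a13 and Slc7a14 with 0.87, and Slc8a3, a sodium-calcium exchanger, and Sptbn4, a spectrin of the axon initial segment, with 0.86.

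Between genotypes Nalcn was higher in the HET library, by a small margin. Over all nuclei it had 21369 UMIs in WT and 22030 in HET, or 304 and 333 CPM, a log2 ratio of 0.13 (0.10 to 0.16), and 74.9% of genes were below it. With each cluster given the same weight in both libraries it was 0.21, and centring on the median gene gave 0.23. In neuron.1 the log2 ratio was 0.18 (0.15 to 0.21), with 80.5% of genes below. With each subcluster given the same weight in both libraries it was 0.092. HET was higher in 11 of the 12 clusters, with the interval above 0 in 8, and lower in astro. Of the 4544 genes, 10.2% were higher in HET in at least 11 clusters, and 21.4% of those that span more than 100 kb, as Nalcn does. All 7 subclusters of neuron.1 were higher in HET, with log2 ratios from 0.09 to 0.26, as were 13.5% of the 8357 genes and 28.6% of those over 100 kb. The levels varied more among subclusters than between libraries, with 260 to 408 CPM in WT and 311 to 434 CPM in HET, and these ranges overlapped.

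The larger ratios of Nalcn were outside neuron.1. In oligo the log2 ratio was 0.64 (0.47 to 0.81), above 95.8% of genes. There Rbfox3 was also higher in HET, at 15.4 against 39.3 CPM, and Snap25 was at 120 and 146 CPM. In oligo nuclei without a UMI of Rbfox3 or Snap25, Nalcn was at 57.4 CPM in 1203 WT nuclei and 102 CPM in 1383 HET nuclei. At their median of 2644 and 2788 UMIs, nuclei can hold neuronal RNA without a UMI of either gene. How much of the Nalcn in oligo is neuronal RNA was not tested. In subcluster 2, where the libraries have near equal numbers, it was at 40.9 and 54.4 CPM, a log2 ratio of 0.41 (0.05 to 0.78). In fibro the log2 ratio was 0.45 (0.15 to 0.74), and in neuron.3 it was 0.45 (0.24 to 0.66). Genes over 100 kb had a median of 0.11 in both clusters, with an upper quartile of 0.42 in fibro and 0.31 in neuron.3.

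Nalcn was also read in neurons split by transmitter. In the inhibitory neurons defined above, 1107 in WT and 785 in HET, Nalcn was at 338 and 361 CPM, a log2 ratio of 0.094 (0.034 to 0.15). With at least 10 UMIs of their transmitter genes in place of 5 it was -0.019 (-0.15 to 0.11), so its sign turned. In the glutamatergic neurons, 134 in WT and 225 in HET, it was at 366 and 304 CPM, a log2 ratio of -0.27 (-0.39 to -0.15). The glutamatergic nuclei of neuron.1 alone gave 409 and 336 CPM. With at least 3 transporter UMIs in place of 5, the glutamatergic nuclei gave 356 and 344 CPM, and the interval of the log2 ratio, -0.12 to 0.03, spanned 0. Nuclei with at least 3 UMIs of Slc6a5 gave 316 CPM in WT and 317 CPM in HET.

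**Figure D4:**
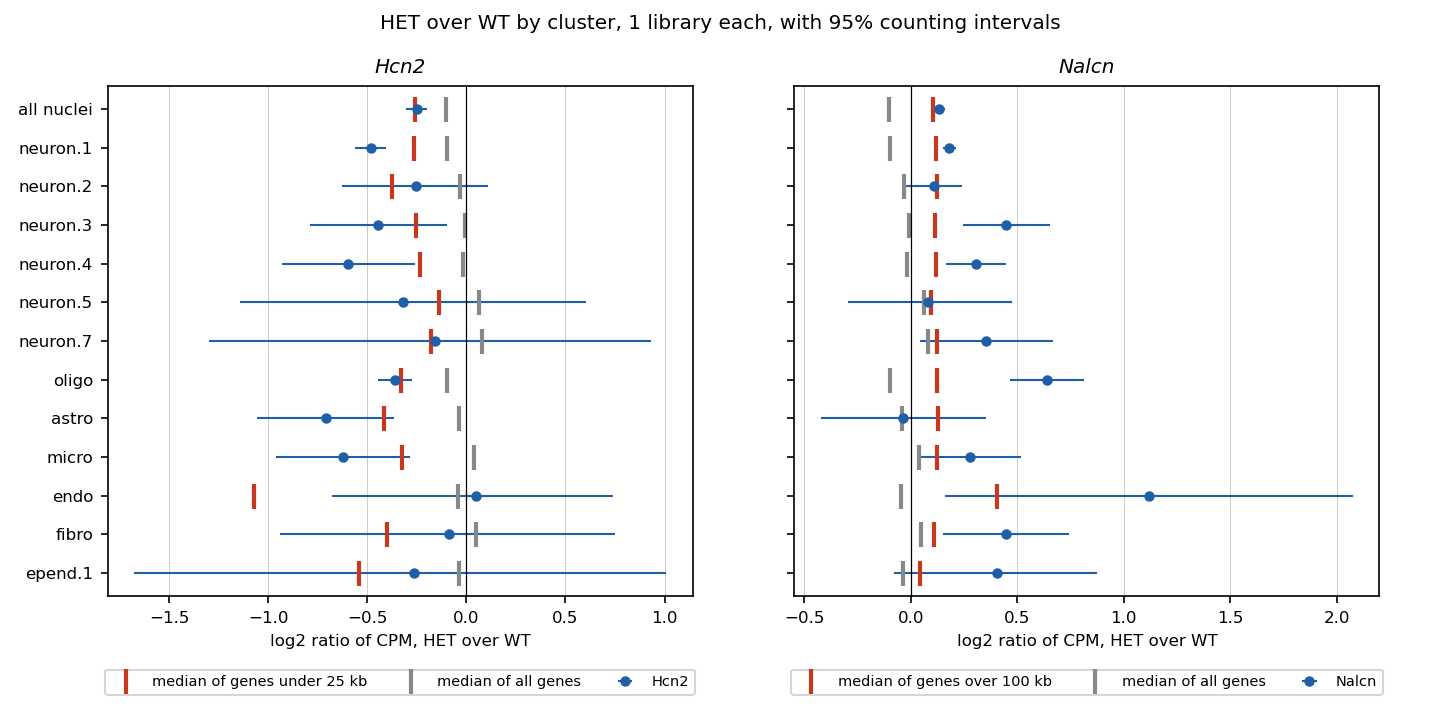
Log2 ratio of HET over WT for Hcn2 and Nalcn in the 12 compared clusters and in all nuclei, with exact 95% intervals of counting. Ticks mark the median of all genes and that of genes under 25 kb (Hcn2) or over 100 kb (Nalcn). For Hcn2 11 clusters lie below 0 and for Nalcn 11 lie above 0.

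Hcn3, an HCN channel that responds little to cAMP, had few UMIs, 719 in WT and 648 in HET. Over the neuronal clusters it was at 11.5 CPM in both libraries. Its highest level was in the serotonergic cluster neuron.7, with 15 UMIs in each library, or 29.5 CPM (16.5 to 48.7) in 46 WT nuclei and 38.6 CPM (21.6 to 63.7) in 33 HET nuclei. Both libraries were above neuron.1, at 11.9 and 12.2 CPM, and their intervals did not overlap with those of neuron.1. Over both libraries 27.8% of neuron.7 nuclei had a UMI of Hcn3, and 3.06% after thinning to 1000 UMIs, against 1.2% in neuron.1. The cholinergic cluster neuron.8, which was not among the compared clusters, gave 14.6 CPM in 44 WT nuclei and 20.9 CPM in 9 HET nuclei. Nuclei with at least 3 Chat UMIs gave 18.3 and 24.3 CPM.

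Oligo and astro held little Hcn3, with 2.74 and 2.41 CPM in oligo and 2.36 and 3.07 CPM in astro. These values were 22.3% and 22.9% of the neuronal level over both libraries and the matching label, beside 21% and 19.4% for Snap25 and 10.8% and 9.46% for Rbfox3. Within neuron.2, subcluster 12 held 10.8 CPM of Hcn3 and subcluster 14 held 2.7 CPM. Over all nuclei the level was 10.2 CPM in WT and 9.79 CPM in HET, which gives a log2 ratio of -0.06 (-0.22 to 0.09). HET was higher in 7 clusters and lower in 5, and every interval spanned 0, with under 20 UMIs in 6 clusters. The genes most like it over the subclusters were Rtbdn, with a Pearson r of 0.83, L1cam, with 0.80, Uba6 and Dhrs13, each with 0.79, and Thoc1, with 0.78. L1cam encodes an adhesion molecule of axons.

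Hcn4, the channel known from the sinoatrial node, had the fewest UMIs of the 4 genes, 321 in WT and 390 in HET. It was concentrated in some neuronal clusters. Neuron.2 held 12.8 CPM (9.4 to 17.1) in WT and 12.6 CPM (8.2 to 18.6) in HET. Neuron.3 held 9.11 and 15.2 CPM, and neuron.4 held 8.40 and 11.7 CPM. Neuron.1 was lower, at 4.41 CPM (3.8 to 5.0) and 5.12 CPM (4.4 to 5.9), and the libraries of each of the other 3 were above it. No UMI of Hcn4 was seen in endo, fibro or neuron.7 in either library. In neuron.7 a count of 0 allows a level of up to 5.91 CPM in WT and 7.73 CPM in HET. Over both libraries it allows up to 3.35 CPM, and the exact interval reaches 4.12 CPM, below the 4.73 CPM (4.29 to 5.21) of neuron.1.

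Among subclusters Hcn4 was at 18.0 CPM in subcluster 27, 15.1 CPM in subcluster 14, 13.2 CPM in subcluster 18, 11.2 CPM in subcluster 13 and 10.7 CPM in subcluster 11. Subcluster 27 had Fn1, Fshr and Bnc2 among its leading genes, and subcluster 14 had Maf and Ebf1, which encode transcription factors. Subcluster 18 lies in micro but carries neuronal genes, as given above. In micro the neuron-labelled nuclei held 12 CPM and the microglia-labelled ones 4.4 CPM, from 1 UMI. Subcluster 12, which like subcluster 14 belongs to neuron.2, held 9.7 CPM. In oligo, at 2.40 and 1.90 CPM, and in astro, at 1.42 and 0.38 CPM, the level was 37.0% and 15.2% of the neuronal one over both libraries and the matching label. The genes most like Hcn4 over the subclusters were Gm17322, with a Pearson r of 0.79, Cyp11a1 with 0.77, Crhr1, a receptor of corticotropin-releasing hormone, and Gabra5, a GABA receptor subunit, each with 0.76, and Adgrf4 with 0.75.

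**Figure D5:**
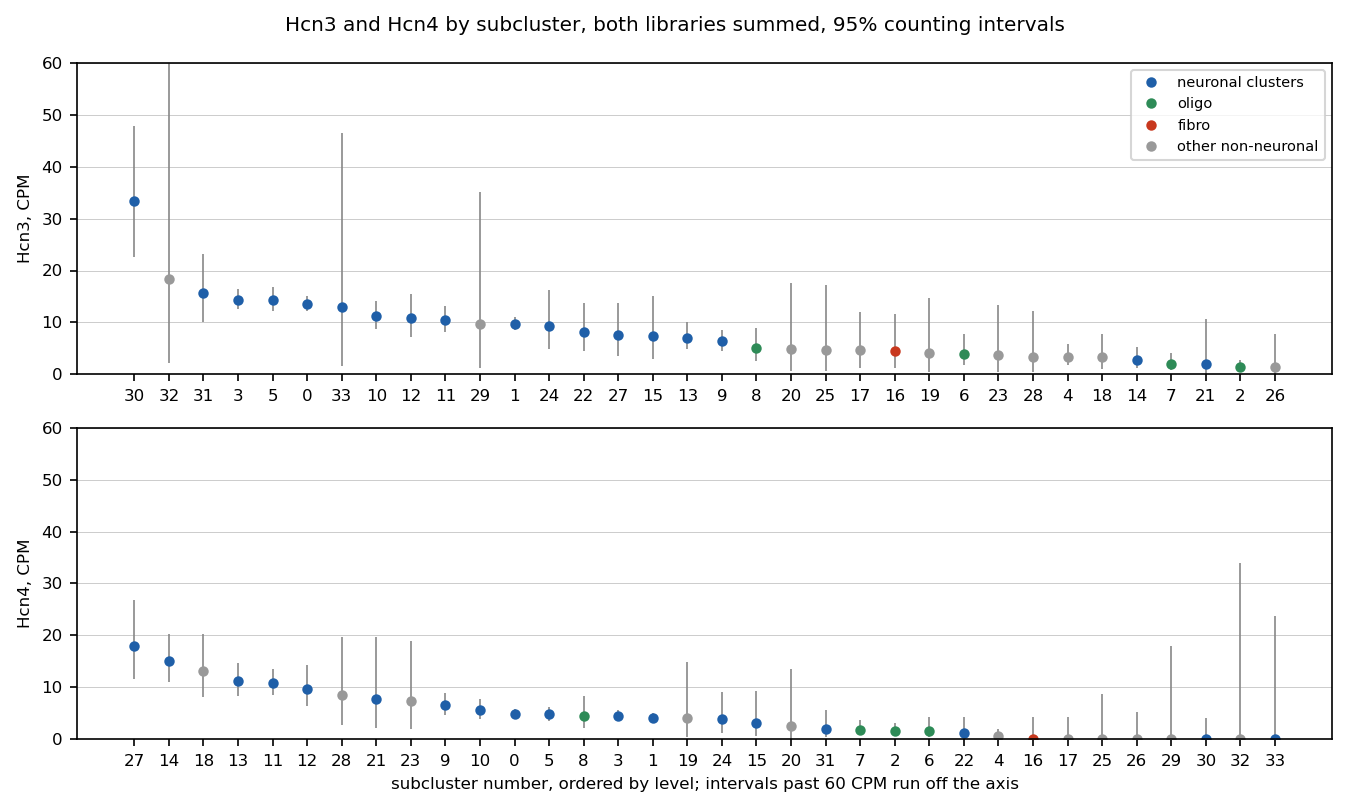
Level of Hcn3 and of Hcn4 (CPM) in the 34 subclusters, both libraries summed, with exact 95% Poisson intervals of counting. Hcn3 is at 33.5 CPM in subcluster 30, the serotonergic cluster, where Hcn4 has no UMI, and Hcn4 is at 18.0 CPM in subcluster 27.

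Over all nuclei Hcn4 was at 4.57 CPM in WT and 5.89 CPM in HET, which gives a log2 ratio of 0.37 (0.15 to 0.59), above 88.8% of genes. Over the neuronal clusters it was at 4.98 and 6.63 CPM, with 0.41 (0.19 to 0.64). Within single clusters no interval was off 0. The log2 ratio was 0.21 (-0.07 to 0.50) in neuron.1 and 0.74 (-0.11 to 1.67) in neuron.3. The libraries also differ in their makeup of Hcn4-rich clusters, since neuron.3 had 143 WT and 319 HET nuclei, neuron.4 had 114 and 339, and neuron.2 had 542 and 275. With each cluster given the same weight in both libraries the log2 ratio over all nuclei was 0.28, and as a mean over nuclei of CPM it was 0.059.

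None of the 4 genes reached an absolute log2 ratio of 0.5 over all nuclei, where 24.7% of genes with at least 200 UMIs did. The interval was off 0 for 3 of the 4, against 74.7% of those genes, so an interval off 0 was usual at this depth. In neuron.1, 21.4% of genes were past 0.5 and 69.4% had an interval off 0. In oligo these shares were 22.6% and 53.4%, and Nalcn was past 0.5 there. Genes that span under 25 kb had a median log2 ratio of -0.26 over all nuclei, those from 25 to 100 kb -0.06 and those over 100 kb 0.10. Hcn2 at -0.25 and Nalcn at 0.13 each lay near the median of genes of their span over all nuclei, Hcn3 at -0.06 lay above it, and Hcn4 at 0.37 lay above that of the middle group. Within clusters the distance varied. In neuron.1 genes under 25 kb had a median of -0.27 and a lower quartile of -0.52, against -0.48 for Hcn2. In oligo genes over 100 kb had a median of 0.12 and an upper quartile of 0.35, against 0.64 for Nalcn. Hcn2 in oligo and Nalcn in neuron.1 lay nearer to the medians for their span, -0.33 and 0.12. The part of span in these ratios was not tested.

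The other genes of the channels and of cAMP were taken from lists, and each was read against 21985 genes with at least 20 UMIs, of which 41.1% were higher in HET, 31.8% were past an absolute log2 ratio of 0.5, and the median was -0.09. Of 4 listed genes of the NALCN complex, 3 were among the counted genes. Of these, 2 were higher and 1 lower, none past 0.5, with a median of 0.11. Unc79, the scaffold, was at 248 and 269 CPM in WT and HET, Unc80 at 479 and 447 CPM, and Fam155a, the auxiliary subunit also named Nalf1, at 2142 and 2378 CPM. Of 8 HCN partners, 4 were higher and 4 lower, with a median of 0.04. Pex5l was at 745 and 886 CPM, a log2 ratio of 0.25, and Kctd3 at 50.9 and 68.1 CPM, a log2 ratio of 0.42. The 3 past 0.5 were all lower in HET. They were Kcne2 at 157 and 27 UMIs, a log2 ratio of -2.45, Cav1, which encodes caveolin, at -0.83, and Lrmp, also named Irag2, at -0.56. Kcne2 is known from the choroid plexus, and the nuclei of epend.2 numbered 108 in WT and 6 in HET. Their part was not tested.

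Of 10 adenylyl cyclases, which make cAMP, 6 were higher and 4 lower, with a median of 0.09. Adcy4 alone was past 0.5, with a log2 ratio of -2.32 from 85 and 16 UMIs, and Adcy5 was at 35.3 and 49.9 CPM. Of 16 phosphodiesterases, which break cAMP down, 10 were higher and 6 lower, with a median of 0.12. Pde4b was at 1165 and 1511 CPM, a log2 ratio of 0.38, Pde8a at 0.44, and Pde4a at -0.42. Pde4c alone was past 0.5, at -0.66, from 52 and 31 UMIs. Of 7 receptors known to act on NALCN, 3 were higher and 4 lower, none past 0.5, with a median of -0.09. Gabbr2, a subunit of the GABA-B receptor, was at 167 and 224 CPM, and Tacr1, the receptor of substance P, at 15.5 and 17.4 CPM.

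Of 9 other channels with a role in pacemaking, 2 were higher and 7 lower, with a median of -0.16. The higher ones were the T-type calcium channels Cacna1i, at 17.1 and 21.5 CPM, and Cacna1g, at 34.3 and 34.6 CPM. Kcnk2, a potassium leak channel, was at 73.7 and 51.6 CPM, a log2 ratio of -0.51, and Trpm5 was at 76 and 17 UMIs, with -2.07. Scn8a, a sodium channel, was at 247 and 240 CPM.

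Over the 34 subclusters the profiles of the 4 genes differed from each other. The Pearson r of log2(CPM + 1) was 0.58 between Hcn3 and Nalcn, 0.30 between Hcn4 and Nalcn, and -0.10 between Hcn3 and Hcn4. Hcn2 had -0.32 with Nalcn, -0.45 with Hcn3 and -0.10 with Hcn4.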

How the data were processed

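The data are snRNA seq of 2 brainstem libraries, 1 WT and 1 HET. The authors deposited raw UMI counts for each gene in each nucleus. The libraries were prepared with the 10x Chromium 3′ v3.1 kit and aligned to the default mm10 reference of Cell Ranger. The version of Cell Ranger is not given in the sources used here. Nuclei were then filtered in Seurat, version 4.1 in the submitters' processing notes. The authors also deposited the percent of mitochondrial and ribosomal UMIs and a doublet score per nucleus, from a caller that is not named. Mitochondrial and hemoglobin genes had been removed, and all deposited nuclei were called singlets. The clusters, subclusters and reference labels were used as deposited.

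The UMIs of the nuclei in each library and cluster were added up and expressed as CPM with exact Poisson intervals. Log2 ratios had exact conditional binomial intervals, and shares had exact Clopper-Pearson intervals. All are at the 95% level and cover counting error only, and the most that a count of 0 allows is 3 UMIs. Clusters needed 30 nuclei in each library, genes 200 UMIs, and genes of a list 20 UMIs. Thinned shares are the shares expected when 1000 UMIs are drawn from each nucleus. Likeness was the Pearson r of log2(CPM + 1). Subcluster leading genes were ranked by fold after adding 5 CPM, among genes with at least 15 UMIs. GENCODE vM21 gave a position for 24908 of the 25556 genes. The scripts were checked on simulated counts.

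The named genes are the 4 members, the genes of the lists, the 5 genes most like each member, and cell type markers. The members and the lists were chosen with earlier results of these data known. The alternatives were the scaling, the weights of clusters, the filters on nuclei and genes, the reference label, depth and the correlation measure. Analyses used scipy 1.17.1, pandas 2.3.3 and numpy 2.4.6 in Python 3.11.15, and plots used matplotlib 3.10.9. Certain genes are not reported here. The other assays of the study were not analysed here.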

Additional observations from a re-analysis of the deposited data

Results flagged for a closer look

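The log2 ratio of HET over WT of Nalcn had opposite signs in the 2 transmitter classes, -0.27 in glutamatergic and 0.094 in inhibitory neurons. The difference between them was not tested, since each genotype has 1 library. It also rests on how a nucleus is assigned. A minimum of 3 UMIs of the transmitter genes in place of 5 was chosen after seeing the data. The values were then -0.047 in 447 WT and 644 HET glutamatergic nuclei, and 0.16 in 1786 and 1391 inhibitory nuclei. With at least 10 they were -0.27 in 10 and 7 glutamatergic nuclei and -0.019 in 263 and 102 inhibitory nuclei, and both intervals spanned 0. The 2 glutamatergic sets had unlike makeups, with neuron.3 holding 2.24% of the WT and 12.4% of the HET nuclei. Over all its nuclei, neuron.3 had the lowest Nalcn level of the compared neuronal clusters. Among the glutamatergic nuclei, those of neuron.1 held Nalcn at 409 CPM in WT and 336 CPM in HET. Those of neuron.3 held 86.5 CPM in 3 WT nuclei and 171 CPM in 28 HET nuclei. The part of makeup in the ratio was not tested.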

How the results depend on the processing

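No paired analysis was possible because each genotype has 1 library, and for the same reason no replicate could be left out. Over all nuclei, neuron.1 and oligo, the log2 ratio of HET over WT of Hcn2 stayed below 0 and that of Nalcn above 0 under every alternative run. The range was -0.43 to -0.15 for Hcn2 and 0.12 to 0.23 for Nalcn over all nuclei. Hcn3 kept its sign in 6 of 8 settings, with a range of -0.15 to 0.04. Centred on the median gene, Hcn2 was at -0.15 over all nuclei, -0.38 in neuron.1 and -0.27 in oligo, and Nalcn at 0.23 over all nuclei and 0.28 in neuron.1. With each cluster given the same weight in both libraries Hcn2 was at -0.43 and Nalcn at 0.21. With the same done for subclusters, Nalcn in neuron.1 was at 0.092. As a mean over nuclei of CPM, Hcn2 was at -0.16, Hcn4 at 0.059, Nalcn at 0.19, and Nalcn in neuron.1 at 0.25. Without the 5% highest doublet scores Nalcn was at 0.17. In oligo subcluster 2 only, Hcn2 was at -0.23 and Nalcn at 0.41. Without nuclei with a UMI of Rbfox3 or Snap25, Nalcn in oligo was at 0.83, and its WT level at 57.4 CPM. Nuclei of fibro with the matching label held Nalcn at 246 CPM in WT and 305 CPM in HET. With at least 3 UMIs of the transmitter genes, Nalcn was at -0.047 in glutamatergic and 0.16 in inhibitory neurons. With at least 10, the inhibitory value was -0.019, with the sign turned. The settings on subclusters, UMIs of the transmitter genes and neuronal UMIs were added after seeing the data. The cause of these moves was not tested. Thinning to 1000 UMIs lowered the shares of nuclei with a UMI, by its construction, to 27.2% for Hcn2 in oligo, 3.06% for Hcn3 in neuron.7, 1.46% for Hcn4 in neuron.2 and 30.9% for Nalcn in neuron.1. The number of genes past an absolute log2 ratio of 0.5, 4035 over all nuclei, 3127 in neuron.1 and 1817 in oligo, was 7013, 6069 and 4824 with a minimum of 20 UMIs and 2168, 1550 and 368 with 1000. By Spearman correlation 3 of the 5 genes most like Hcn2 and 1 of the 5 most like Nalcn remained, and with at least 1000 UMIs 2 of the 5 most like Hcn4. The counts of Hcn3 and Hcn4 limit what can be seen within single clusters.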

Other observations

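In clusters that had too few HET nuclei to be compared, the WT library alone gave these levels. Neuron.6, with 120 WT nuclei, held Nalcn at 320 CPM and Hcn2 at 30.5 CPM. Neuron.8, with 44, held Nalcn at 244 CPM and Hcn2 at 36.1 CPM, and each of its nuclei had a Nalcn UMI. Neuron.9, with 35 WT nuclei at a median of 2034 UMIs, held Nalcn at 47.2 CPM, from 4 UMIs, and Hcn2 at 94.4 CPM, from 8 UMIs. Of its 37 nuclei in both libraries 23 had the neuronal reference label.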
